A study of Drosophila melanogaster with 3 samples.

Results

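Cohesin and condensin factor hosts are the 4 genes cap-G and cap-H2 (condensin), Nipped-B and san (cohesin), each of which was listed as the source of a stable intronic sequence RNA (sisRNA) in the unfertilized Drosophila melanogaster egg. A sisRNA is a piece of an intron that outlasts splicing. The members were found by symbol, without regard to case or bracketed remarks, and were 4 of the 295 hosts in the longer of the deposited lists and 2 of the 140 in the shorter list, which gives read counts. Because they were picked after they had been seen in the list, their presence there is no result. The eggs were laid by y w females, which carry marker mutations of body and eye colour, and were not fertilized. The 3 libraries, with 1 per group, held total RNA depleted of ribosomal RNA, and the polyA-plus and polyA-minus fractions of that RNA. The read counts stand in 1 column that names no library, so fractions could not be compared and no value has a replicate or a test. Library depth is unknown, and the intervals given cover counting error only.

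Cohesin is a ring of SMC and kleisin proteins that holds sister chromatids together from replication until separase opens it in mitosis. Condensin is a related ring complex that compacts chromosomes for division. The early fly embryo passes through rapid nuclear divisions that use proteins and RNAs deposited by the mother, so both complexes are needed from its start. Nipped-B, with its partner Mau2, loads cohesin onto chromosomes. san (separation anxiety) encodes an N-terminal acetyltransferase that is required for sister chromatid cohesion. cap-G and cap-H2 encode non-SMC subunits of condensin, and in fly cells Cap-H2, as part of condensin II, opposes the pairing of homologous chromosomes. The label thus rests on known protein functions, which the deposited lists do not hold.

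The 3 members Nipped-B, san and cap-G were on arm 2R, where 18.9% of the other hosts were listed, and cap-H2 was on 3R. Nipped-B and san had a read count, and cap-G and cap-H2 had none. Among the other 291 hosts of the longer list 135 (46.4%) were counted, so 2 of 4 is near that background. The lowest count in the list was 8 reads, and a host without a count cannot be read as a host with no reads.

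The deposited lists record which of 3 poly(A) signal hexamers was found for each host. A poly(A) signal directs cleavage of the RNA and addition of a poly(A) tail, and its canonical form is aauaaa. The variants are shown here because they are the ones listed for the members, with capitals at the bases that differ from the canonical hexamer and positions counted from 1 at its 5′ end. The first variant is aUuaaa, with the difference A2U. The second is aUAaaa, with A2U and U3A. Nipped-B was listed with both variants and cap-H2 with the second one alone. No hexamer was listed for san or cap-G. The canonical form was listed for 0 of the 4 members and for 137 of the other 291 hosts (47.1%). Any hexamer was listed for 2 of 4 members, against 75.3% of the other hosts. With 4 members chosen from the list, these counts are a description only. No source used here gives the sequence that was searched, so the hexamers cannot be tied to a place in any member.

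Nipped-B had 383 reads (Poisson 95% interval 346 to 423) with its centre at position 582231 of arm 2R in the dm3 build. The sisRNA of san had 17 reads (9.90 to 27.2), centred at 7248830 on the same arm. The count of Nipped-B was thus 22.5 times that of san (exact conditional 95% interval 13.9 to 39.1). Lengths of the sisRNAs were not analysed here, so these are read counts and not levels per length, and the ratio can hold a difference in length as well as in abundance. Together both members held 400 of the 11169 listed reads, or 3.58% (exact 95% interval 3.24% to 3.94%), and Nipped-B alone held 3.43%.

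The counted members lay near opposite ends of the list. The median of the other 138 counted sisRNAs was 48 reads, and the count of Nipped-B was 7.98 times that median, at place 4 of 140. The next row above it was wal, a gene of mitochondrial electron transfer, at 454 reads, and the next below was CG33217 at 325 reads. The ratio of wal to Nipped-B was 1.19 (1.03 to 1.36) and that of Nipped-B to CG33217 was 1.18 (1.01 to 1.37), so each neighbour differed from it by little more than counting error. The san count was 0.354 times the median of the other rows, at place 122, with 121 rows above it and 17 below. CG10462 had the same 17 reads. Directly above stood CG3654, CG9773 and Vha55 with 18 reads each, and directly below Madm with 16, all inside the counting interval of san. Its place in the order was therefore not resolved at this depth.

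**Figure D1:**
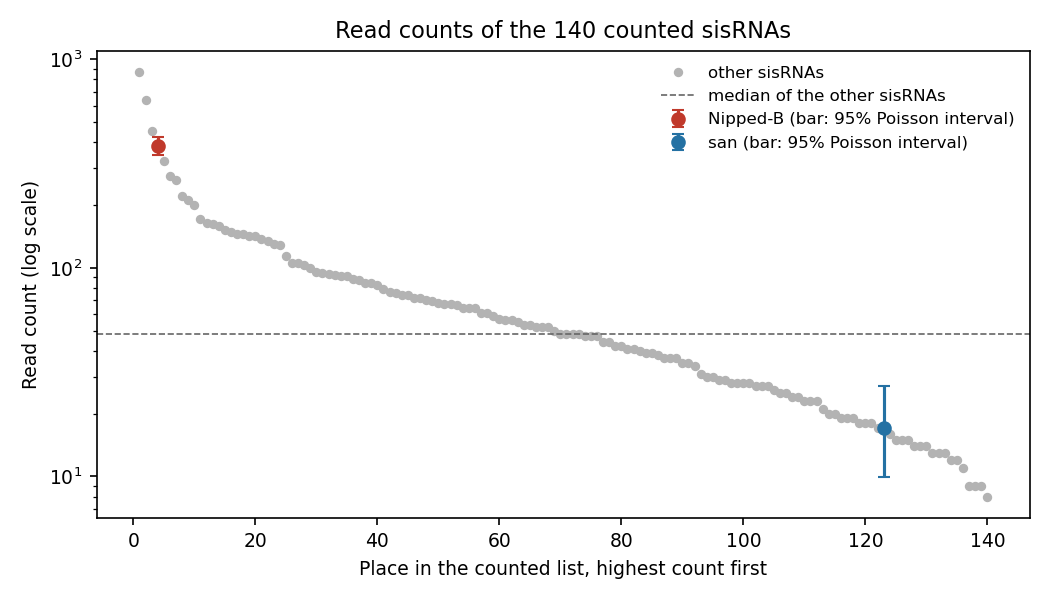
Read count (log scale) of each of the 140 counted sisRNAs against its place in the list, highest first; coloured points are Nipped-B and san with 95% Poisson intervals, and the dashed line is the median of the others. Nipped-B at 383 reads stands far above the line at 48, and san at 17 stands below it.

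Within arm 2R, Nipped-B was second of 22 counted sisRNAs, behind wal, and san was place 21. Only botv, with 9 reads, was lower than san there. The median of the other sisRNAs of the arm was 85 reads when Nipped-B was left out and 87 when san was left out, so the read count of Nipped-B was 4.51 times the arm's median and that of san 0.195 times. The sisRNA nearest to Nipped-B, at 87222 bases, was that of p120ctn, a catenin of cell junctions, with 67 reads (51.9 to 85.1). The Nipped-B count was 5.72 times as high (4.40 to 7.53). The next, Gprk1, a G protein-coupled receptor kinase gene 236822 bases away, had 23 reads, and CG17665 at 452911 bases had 149. The interval of Nipped-B overlapped none of these 3.

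The nearest counted sisRNA to san lay 2579 bases away, in CG12384, which had 85 reads (67.9 to 105). That count was 5.0 times the count of san (2.95 to 8.98). In the BDGP6 annotation the genes are 1529 bases apart on opposite strands, with ix, a Mediator subunit gene, between them. On its other side san ends 28 bases before Gr47b, a gustatory receptor gene on the same strand. No annotated gene overlaps san. No source used here says whether counting used the strand.

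**Figure D2:**
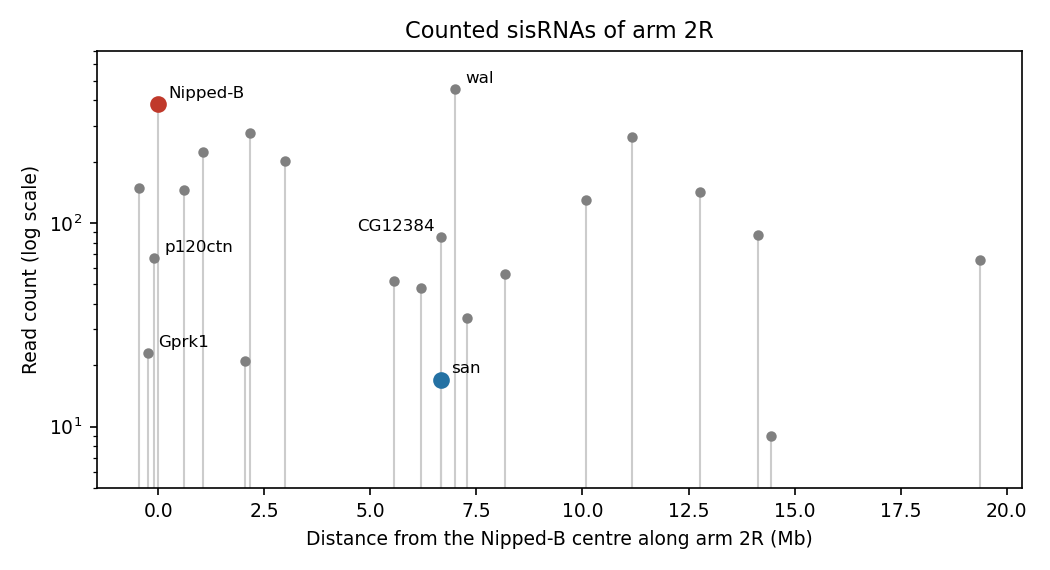
Read count (log scale) of the 22 counted sisRNAs of arm 2R against distance in megabases from the Nipped-B centre (dm3 positions; first centre where 2 are listed), with 1 line and point per sisRNA. Nipped-B at 383 reads stands beside p120ctn at 67, and san at 17 stands beside CG12384 at 85.

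Counts were then set beside those of hosts with the same hexamers. The pair of variants listed for Nipped-B was listed for 7 other hosts, of which 5 were counted. Their counts were 145 for Ogt, a glycosyltransferase gene, 87 for CG15083, 83 for CG12177, 57 for polo, a mitotic kinase gene, and 23 for Gprk1. Nipped-B was higher than each of them, with an interval that overlapped none of theirs (the highest reached 171). It was also higher than 136 rows of the whole counted list. Among sisRNAs with no hexamer san stood at place 37 of 44, and the other 43 ranged from 9 to 212 reads with a median of 37. Of the 72 hosts outside the members with no hexamer, the class of cap-G and san, 42 (58.3%) were counted. For the single hexamer of cap-H2 that was so for 14 of 32 other hosts (43.8%). These shares use the hexamers of the longer list, whereas the place of san uses those of the counted list. The lists do not match in full: the counted list gives 13 other rows with the hexamer of cap-H2 alone. The uncounted state of cap-G and cap-H2 was thus shared with many hosts of the same hexamer class.

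The members' genes were then described from the Ensembl release 115 annotation of BDGP6, which matched 288 of the 295 hosts on the listed arm. BDGP6 is another build than dm3, and no coordinate was moved between them, so each sisRNA was not placed in an intron. The longest intron of a host need not be the one that holds its sisRNA. Nipped-B is a large gene of 37346 bases on the minus strand (chromosome arm 2R, 4691672 to 4729017), with 26 distinct introns over 6 transcripts. The longest is 10552 bases, against a median longest intron of 1947 bases in the 284 other annotated hosts, of which 50 have a longer one. The gene san spans 1166 bases (2R, 11360706 to 11361871, plus strand) and has introns of 232 and 126 bases. cap-G spans 9679 bases (2R, 13133142 to 13142820, plus strand), with 6 distinct introns, of which the longest is 5243 bases. cap-H2 spans 5447 bases (3R, 10761310 to 10766756, plus strand), with 12 distinct introns of at most 579 bases. By longest intron, Nipped-B and cap-G thus lay above the median of the other hosts, and cap-H2 and san below it.

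The longest intron of san, at 232 bases, was shorter than that of any of the 134 other annotated hosts with a count, the next being CG9393 at 246 bases. With the longest transcript of each gene alone, 1 of the 134 was shorter, at 212 bases. Among the 11739 other intron-bearing protein-coding genes of the main arms, where the median is 248 bases, 50.9% have a longer one. An RNA wholly inside an annotated intron of san can be at most 232 bases long. The 10 other counted hosts with the shortest longest introns, from 246 to 290 bases, had 9 to 48 reads with a median of 15.5, and 5 of these had fewer reads than san. The low count of san was thus close to that of hosts of like intron size. Of these 10 hosts 5 also had no listed hexamer, as san did. Whether intron size bears on the counts was not tested. At the other end, 12 other counted hosts had a longest intron at least as long as that of Nipped-B, and their counts ranged from 14 for CG33181 to 265 for tun, with a median of 62. Nipped-B was above all 12, as it was above 136 rows of the whole counted list. Over the 136 annotated counted hosts, Spearman's rho between read count and longest intron was 0.33 and Pearson's r of the log2 values was 0.26. This is a description across genes, which are not replicates and share the same libraries. The sisRNAs were not placed in introns, so a count need not come from the longest intron.

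**Figure D3:**
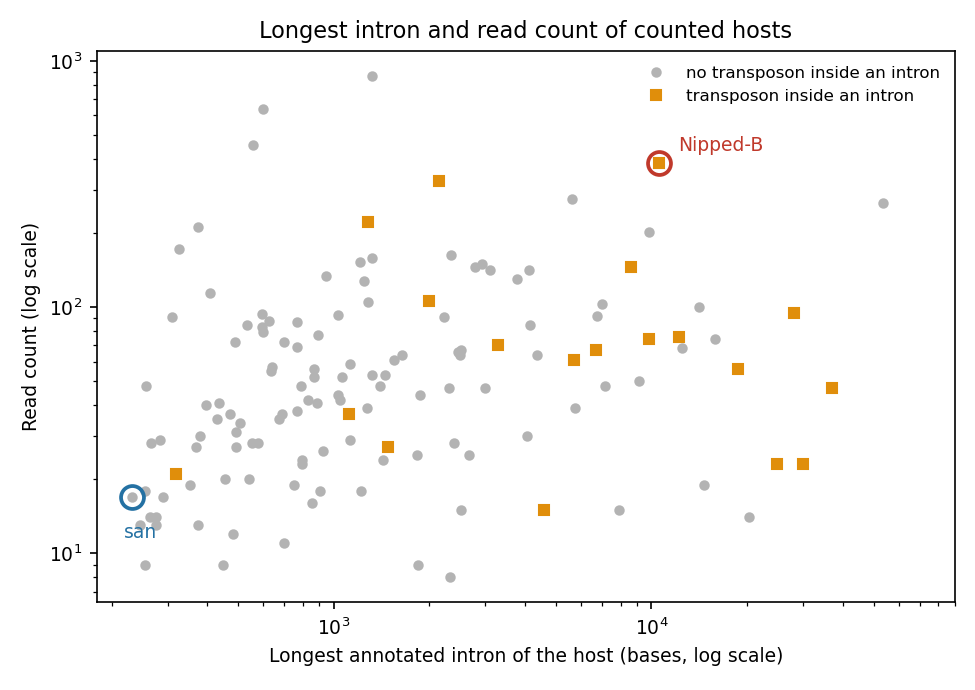
Read count against the longest annotated intron of the host (both log scales) for the 136 annotated hosts with a count. Orange squares are hosts with a transposon wholly inside an intron, and rings mark Nipped-B and san. The sisRNA need not lie in the longest intron. The ring of san is the leftmost point at 232 bases and 17 reads, and that of Nipped-B stands at 10552 bases and 383 reads.

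Both long members carry transposons in their introns, and the short members carry none. Transposons are mobile elements whose copies lie in many places of the genome. In Nipped-B the annotation places 41 transposon insertions inside introns. They cover 17458 of 31030 intron bases (56.3%). Of these, 20 are INE-1 elements, a short and very abundant family, 5 are copies of the DNA transposon 1360, and 1 is a copy of the retrotransposon Burdock. All 41 lie in the 7 introns longer than 1000 bases, and none in the other 19. The longest intron holds 16 insertions over 46.7% of its bases. The second longest, of 6994 bases, holds 13 over 85.6%, which leaves 1007 bases outside transposons. Of the 284 other annotated hosts 49 (17.3%) have a transposon wholly inside an intron. By transposon bases in introns Nipped-B was first among the counted hosts, just above the next at 16956 bases.

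In cap-G a single copy of Doc, a retrotransposon of the non-LTR class, makes up most of the intron sequence. It covers 4726 bases of an intron of 4804 bases (98.4%), and 78 bases lie outside it. The 5243-base intron of the gene's other splice form spans the same insertion. Over all its introns 86.7% of the bases were transposon, a higher share than in any of the 284 other annotated hosts, where the highest was 75.3%. Among the 11739 other protein-coding genes with an intron 18 have a higher share. The annotation describes a reference strain, and whether the y w flies carry this insertion, or those in Nipped-B, was not tested.

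Reads from transposon copies can map to many places, and no source used here gives how such reads were treated. Whether the sisRNAs of Nipped-B and cap-G overlap a transposon was not tested. Of the 49 other hosts with a transposon wholly inside an intron 18 were counted (36.7%), with 15 to 325 reads and a median of 64. Of the 235 other hosts without one 116 were counted (49.4%), with 8 to 869 reads and a median of 47.5. A transposon not wholly inside an intron was left out here. The group without one thus holds syd, with 50 reads and transposons over 64.1% of its intron bases. It also holds the uncounted l(1)G0289, at 53.3%. These groups also differ in intron size, with a median longest intron of 12800 bases with a transposon and 1318 bases without, and its part in the counts was not tested. The count of Nipped-B was higher than each of the 18 with a transposon, but also than 136 rows of the whole counted list.

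**Figure D4:**
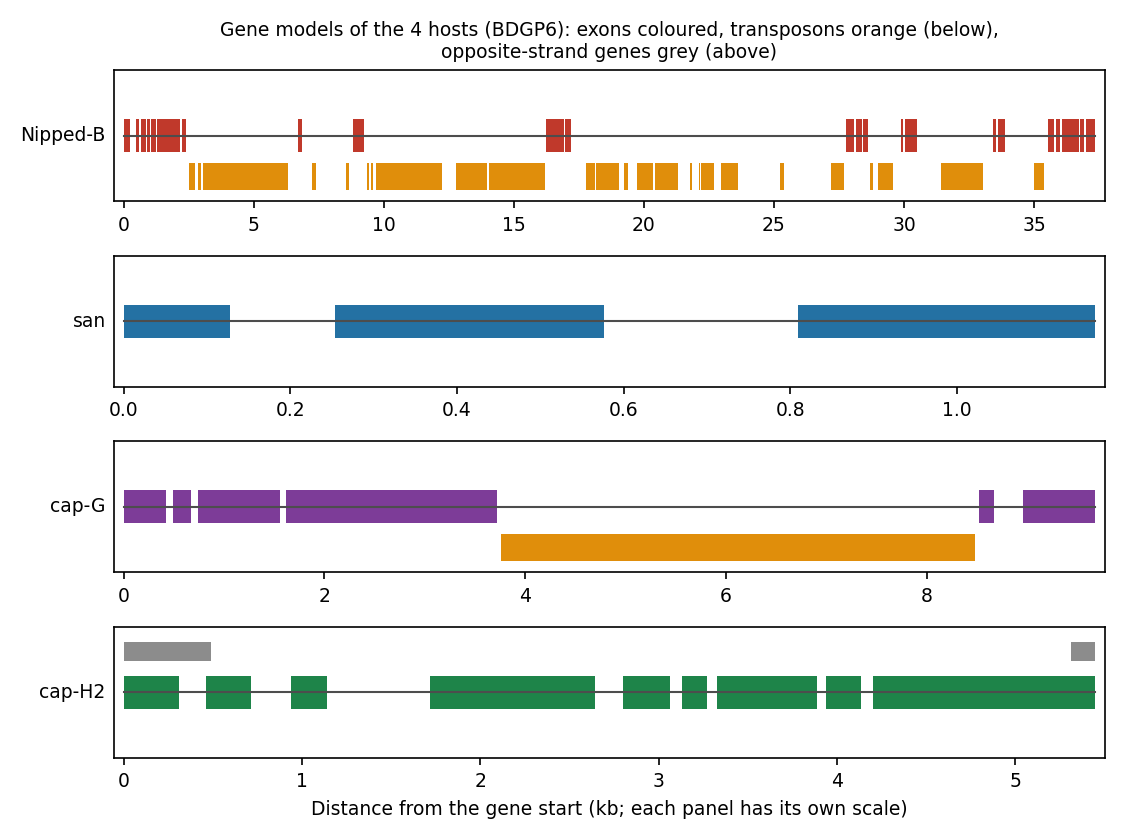
Gene models of the 4 members, with distance from the gene start in kilobases and a scale of its own for each panel; coloured boxes are exons of any transcript, orange boxes are transposons and grey boxes are genes of the opposite strand. The 41 insertions spread over the introns of Nipped-B, 1 insertion fills the large intron of cap-G, and san and cap-H2 have none.

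The members also differ in their place on the chromosome. Nipped-B is number 27 from the centromere of the 2440 intron-bearing protein-coding genes of arm 2R, within the first 1.11% of them. In the same order san is number 703 and cap-G number 932. cap-H2 is number 720 of 2955 on arm 3R. Hosts next to Nipped-B on the arm varied in transposon content. Transposons cover 63.5% of the intron bases of Nipped-A, an uncounted host that directly follows Nipped-B among the hosts of the arm. They cover 44.9% in p120ctn and 51.1% in Ogt, but 11.6% in Gprk1 and 0 in CG17665. Whether position bears on the counts was not tested.

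cap-H2 was the member marked AS in the longer list, a remark that no source used here explains. In the annotation 2 genes of the opposite strand overlap cap-H2. The antisense RNA gene asRNA:CR45016 overlaps it over 488 bases at its start, of which 181 are intron bases. TfIIFbeta, a subunit of a general transcription factor, overlaps it over 135 bases at its end and touches no intron base. The other 3 members have no opposite-strand gene, whereas 39.8% of the other annotated hosts have 1 or more. Of the 6 other hosts marked AS, 2 (CG8036 and CG1091) have such a gene and 2 (CG1091 and CG9393) were counted, with 27 and 13 reads. In the counted list CG1091 is marked cis-NAT (cis-natural antisense transcript) instead, and CG9393 carries neither mark. Of the 11 other hosts marked cis-NAT in the longer list, 7 have an opposite-strand gene (63.6%). Among the 267 other hosts with no remark 104 have an opposite-strand gene (39.0%). The mark on cap-H2 thus stands beside an annotated antisense RNA, but the same does not hold for most hosts that carry it.

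The other genes of the cohesin and condensin machinery were looked up in both lists. Of 39 names 38 matched the annotation, and the 4 members were the hosts among them. In the background of 11740 protein-coding genes with an intron 2.43% were hosts, but since the group was assembled around hosts already seen, nothing is read from this. Cohesin loading and release gave 1 of 4 genes (Nipped-B, without its partner Mau2 or the release factors wapl and pds5). Acetylation and protection gave 1 of 5 (san, without the cohesin acetyltransferase eco). Condensin gave 2 of 7. The 9 cohesin ring genes, the 3 cleavage genes, the 7 genes of the related SMC5/6 complex and the 3 annotated acetyltransferase partners gave 0. SMC1, SMC3 and vtd, the core of the ring, were not listed, and neither were SMC2 and glu, the SMC pair of condensin.

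Most of these unlisted genes have only short introns. Among the 34 annotated genes of the group that were not hosts, 32 have an intron. The median longest intron of the 34 was 78 bases, with genes lacking an intron taken as 0. It was 248 bases over other protein-coding genes with an intron and 1947 bases over the other annotated hosts. The 4 hosts stood at places 1 (Nipped-B), 5 (cap-G), 9 (cap-H2) and 13 (san) of the group by longest intron. The members were picked as hosts, and whether intron size bears on listing was not tested. Long introns did not go with listing in every case. vtd, the kleisin of the ring, has a longest intron of 8314 bases. That of solo has 6645 bases and that of Cap-D3, a condensin II subunit, has 5710 bases. None of these genes was listed. However, solo and vas lie on the opposite strand of the listed host vig and overlap all 4177 of its intron bases. The group's SNM (SA2) lies inside an intron of the listed host Ptp61f. Mau2, the loading partner of Nipped-B, has a single intron of 58 bases. vtd was the only unlisted gene of the group with a transposon inside an intron. Whether the egg expresses each of these genes could not be seen in the lists.

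**Figure D5:**
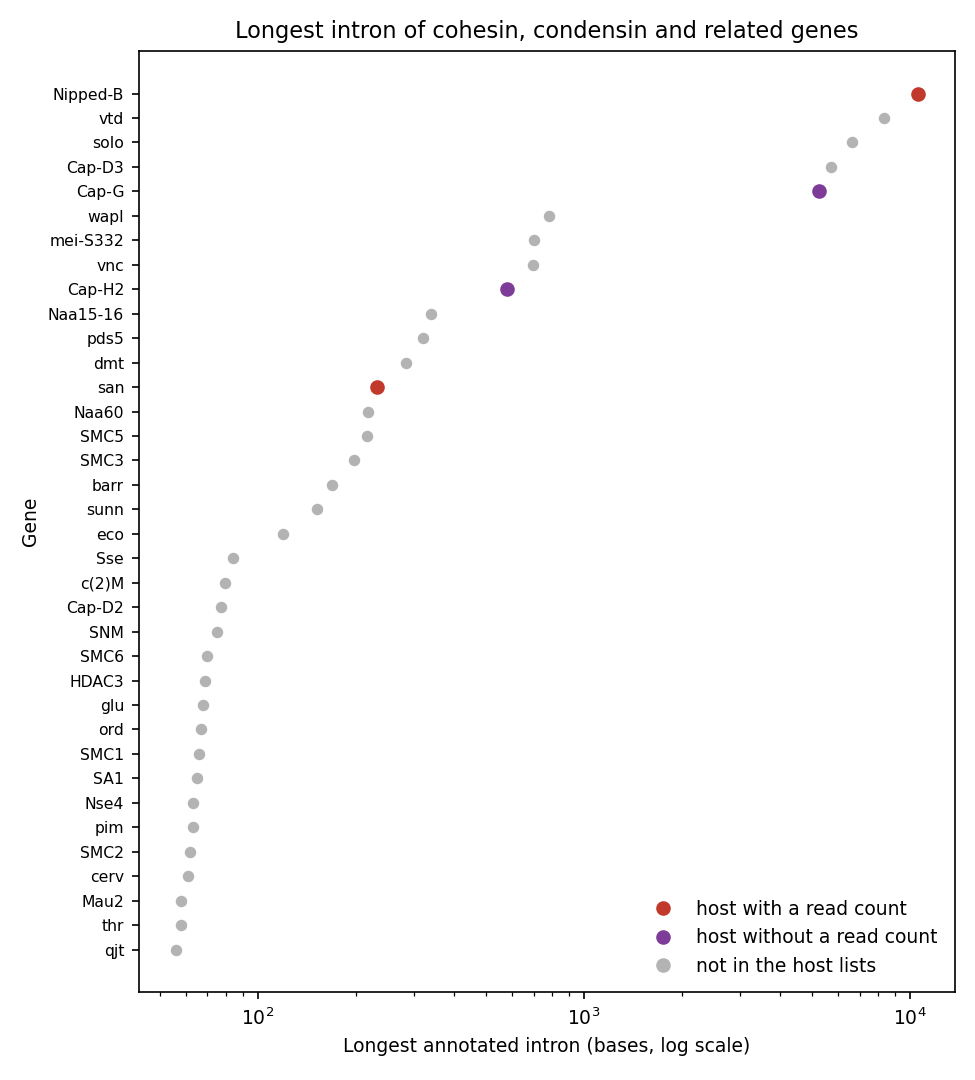
Longest annotated intron (bases, log scale) of the 36 cohesin, condensin and related genes that have an intron, with 1 point per gene; red points are hosts with a read count, purple points hosts without one, and grey points genes in neither list. Nipped-B has the longest intron of the group at 10552 bases, san stands at 232, and vtd, solo and Cap-D3 are grey at 8314, 6645 and 5710 bases.

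The gene Nipped-A, on the same arm, is in the longer list but is no member. It encodes a large cofactor of histone acetyltransferase complexes and shares the first part of its name with Nipped-B. The lists name intron hosts and give no expression, so they could not check the labelled cell type: 0 of 7 egg genes, 0 of 4 follicle cell genes and 0 of 6 zygotic genes were listed as hosts.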

How the data were processed

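The authors deposited 2 sheets, a list of 295 hosts with arm and poly(A) signal hexamers, and a list of 140 sisRNAs with an approximate centre, hexamers and read counts. As deposited by the authors, the read counts are raw whole numbers in a single column with no library name. Positions are in dm3, the build named in the submitters' processing notes. No source used here gives the aligner, the counter or the rule for calling sisRNAs. The members and gene lists were chosen with earlier results of these data known. The rule for named genes took the 4 members, listed genes of the cohesin and condensin group, rows next to a counted member in reads or position, and neighbouring genes, and other genes were named after their values were seen. Counts have exact Poisson 95% intervals, shares exact Clopper-Pearson intervals, and ratios of counts exact conditional binomial intervals. Introns were the distinct introns of all transcripts in Ensembl release 115 (BDGP6), and transposons were its annotated elements. Host symbols were matched by name, then by RefSeq synonym, on the listed arm. The group's name jnj is a synonym of SMC6 and was counted once, and Naa20 was not matched. The intron and overlap steps were tested on simulated data. A planned search for hexamers in introns needs a genome and was not run. Computation used Python 3.11.15, numpy 2.4.6, scipy 1.17.1 and pandas 2.3.3.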

Additional observations from a re-analysis of the deposited data

How the results depend on the processing

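No paired analysis was possible because there was 1 library a group and the counts name none. With a minimum of 20 reads the count of Nipped-B was 6.38 times the median of the other rows, and san dropped out. Without the highest row Nipped-B moved to place 3. Within arm 2R both members held 13.6% of the reads. There Nipped-B was at place 2 and 4.51 times the median, and san was at place 21 and 0.195 times the median. These shifts follow from taking rows out. The other values for counts stayed within their intervals with a minimum of 10 reads and without rows marked with a cis-natural antisense transcript or with 2 centres. In the counted list the other rows had any hexamer in 68.8%, the canonical one in 39.1% and auuaaa in 30.4%, against 75.3%, 47.1% and 24.1% in the longer list, and the cause was not tested. With the longest transcript alone the longest intron of cap-G was 4804 bases, and san was no longer the shortest of the counted hosts (place 134 of 135, lowest 212 bases). Matching by printed symbol alone again gave 4 hosts. The search of hexamers in whole genes was not run.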

Other observations

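Nipped-A, a neighbour of Nipped-B near the centromere of arm 2R, is a host with no read count and with the canonical hexamer alone. Its longest annotated intron is 24460 bases, and 54 transposon insertions lie inside its introns and cover 63.5% of their bases. Ogt, also in this stretch, has 22 insertions and 145 reads. gp210, a nuclear pore gene, has 222 reads with 5 insertions over 15.7% of its intron bases. The choice of these genes followed a look at their values.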
